A study of Aspergillus nidulans with 4 samples.

Results

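Aspergillus nidulans can live on arginine and proline, and 7 of the 10930 genes of the deposited expression table are described here as genes of that route. They were taken by their identifiers: the arginase gene *agaA* (AN2901), the ornithine transaminase gene *otaA* (AN1810), and the proline utilization (*prn*) cluster of *prnA* (AN1729), *prnX* (AN1730), *prnD* (AN1731), *prnB* (AN1732) and *prnC* (AN1733). The choice was made with values of these same samples known, so the levels of the 7 genes are described here and not tested. The function text of the table names an arginase for AN2901, an ornithine transaminase for AN1810, the transcriptional activator of the cluster for AN1729, a proline dehydrogenase for AN1731, a proline transporter for AN1732 and a pyrroline-5-carboxylate dehydrogenase for AN1733, and for AN1730 only membership of the cluster.

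Arginase splits arginine into urea and ornithine. Ornithine transaminase turns ornithine into glutamate semialdehyde, which is in equilibrium with pyrroline-5-carboxylate. Proline reaches the same intermediate by another way: PrnB carries it into the cell and PrnD, a mitochondrial proline oxidase, oxidizes it. PrnC then makes glutamate from the intermediate, so arginine and proline share their last step. The *prn* cluster is a textbook case of double control in A. nidulans, since it is induced by proline through PrnA and repressed when ammonium and glucose are both present, through the GATA factor AreA and the carbon catabolite repressor CreA. Arginase and ornithine transaminase are induced by arginine through a separate zinc cluster regulator.

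The study compared the *pkaA* deletion strain (Δ*pkaA*, FGSC A1358), which lacks a catalytic subunit of protein kinase A, with its isogenic parent (WT, FGSC A1405), with 2 samples per strain, each run in 2 technical replicates. Both were grown at 28°C and 250 rpm in the same rich liquid medium (YGV, with 2% glucose and 0.5% yeast extract) from a seed culture of 12 h at pH 3.3, harvested as mycelium after about 20 h, and measured by RNA-seq of total RNA. Both groups thus had glucose and the amino acids of yeast extract, and no medium with arginine or proline as the nitrogen source was analysed here. The sources used here give no marker alleles or auxotrophies of either strain.

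The values are the authors' mean normalized counts, that is, reads on a gene divided by a size factor of each library and averaged over the libraries of a strain. They sum to about 29312200 in Δ*pkaA* and 31012500 in the WT. For low means the reads of the 2 libraries behind a mean can be worked out, since only 1 pair of whole numbers gives the printed value (library a and library b below). Where the values of single libraries are not given, the spread between libraries is not known. The deleted gene *pkaA* (AN6305) had 79 and 69 reads in the Δ*pkaA* libraries and 1892 and 1851 in those of the WT, which was 25.3-fold lower in the deletion strain by the means.

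The 2 genes that begin arginine breakdown were far lower in Δ*pkaA*, and the genes of the *prn* cluster stood closer to the WT. *agaA* was 216-fold lower and *otaA* 22.6-fold lower by the means, whereas the 5 *prn* genes ranged from 2.10-fold lower to 1.71-fold higher. Of the 7 genes, 3 were at least 2-fold lower in Δ*pkaA* and 0 were at least 2-fold higher. Among all 10545 genes above 0 in a strain, 18.6% were at least 2-fold lower and 17.9% at least 2-fold higher. Among the 8161 genes whose strain means averaged 100 or more, to which all members belong, the shares were 13.9% and 14.5%. Because the members were picked from this contrast, nothing is read from their count against these shares.

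**Figure D1:**
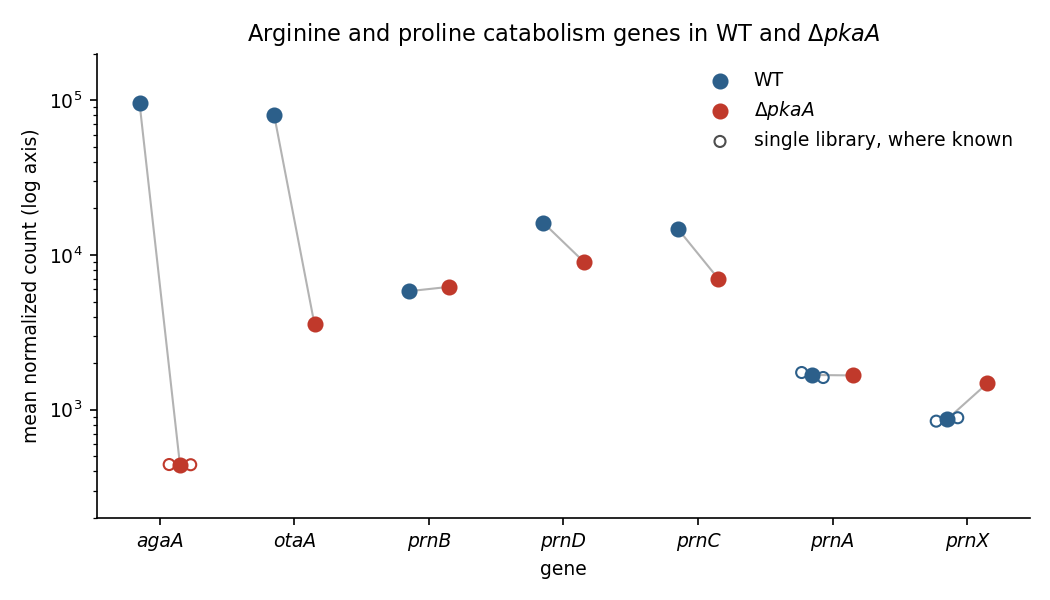
Mean normalized count (log axis) of the 7 genes in the WT (blue) and Δ*pkaA* (red), with filled circles for the authors' mean of a strain and open circles for its 2 libraries where exactly 1 pair of whole reads gives the mean. The WT means of *agaA* and *otaA* stand at 95484 and 80309 and those of Δ*pkaA* at 442 and 3557, while the means of each *prn* gene lie at most 2.10-fold apart.

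*agaA* lies on chromosome VI in assembly ASM1142v1 and is listed by the authors from base 2453783 to base 2455345 on the minus strand. Its mean normalized count was 95484 in the WT and 442 in Δ*pkaA*. The Δ*pkaA* libraries held 451 and 433 reads, which gave 442 and 441 normalized counts. The Δ*pkaA* libraries were nearly equal. How the WT mean divides between its libraries is not known, since 593 pairs of reads give it. The log2 ratio of Δ*pkaA* to WT was -7.76. With the WT mean taken as given, the 884 reads in Δ*pkaA* allow a fold of 202 to 231 (95% exact Poisson interval, counting error only).

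In the WT the arginase transcript had the 21st highest mean of all genes, and in Δ*pkaA* it stood at rank 6559. Among 8159 genes averaging 100 or more with reads in both strains, 18 had a lower ratio than *agaA*. The genes with the nearest log2 ratio, over the means of the 2 strains, were AN3230, a polyketide synthase gene (-7.78), AN3206, a putative aryl-alcohol oxidase gene (-7.72), and AN6075, with a predicted ammonia-lyase domain (-7.70).

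*otaA* lies on chromosome VII, from base 1958897 to base 1960758 on the minus strand in the authors' listing. Its mean normalized count was 80309 in the WT, the 35th highest, against 3557 in Δ*pkaA*, a log2 ratio of -4.50. Among the same 8159 genes, 102 had a lower ratio, *agaA* among them. As 464 pairs of reads give the WT mean and 8 the Δ*pkaA* mean, its spread between libraries is not known. Per kilobase of listed span, introns included, *agaA* stood at 61090 and *otaA* at 43131 normalized counts in the WT, a quotient of 1.42. In Δ*pkaA* they stood at 282 and 1910.3, a quotient of 0.148, so the order of the pair was turned round between the strains.

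**Figure D2:**
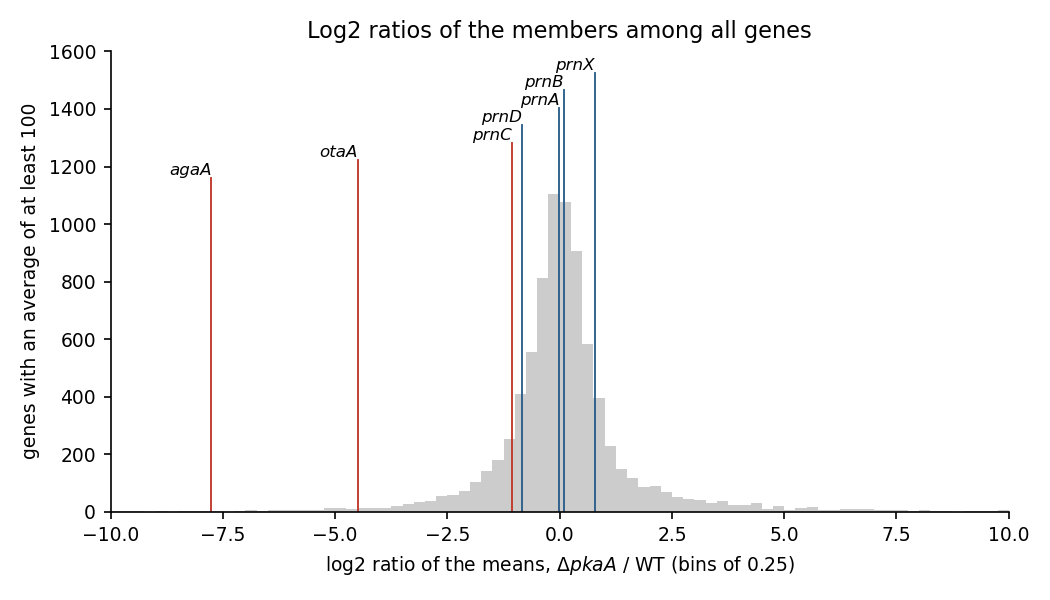
Number of genes averaging 100 or more by the log2 ratio of the means (Δ*pkaA* over WT, bins of 0.25, genes beyond 10 in either direction set in the outermost bins), with a vertical line for each of the 7 genes, red where it was at least 2-fold lower. *agaA* at -7.76 and *otaA* at -4.50 stand in the left tail, and *prnD*, *prnA*, *prnB* and *prnX* lie within 2-fold of no difference.

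Together the *agaA* and *otaA* means made up 0.567% of the sum of all means in the WT and 0.0136% in Δ*pkaA*. The 5 *prn* genes made up 0.127% in the WT and 0.0869% in Δ*pkaA*. The share of the arginine pair was thus far lower in Δ*pkaA*, and that of the cluster closer to the WT.

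The *prn* cluster lies on chromosome VII. In the authors' listing *prnA* runs from base 1732892 to 1736006, *prnX* from 1736470 to 1737937 and *prnD* from 1738086 to 1739838, all on the minus strand, and *prnB* from 1741361 to 1743232 and *prnC* from 1743861 to 1745728 on the plus strand. *prnD* and *prnB* are read away from each other across a gap of 1522 bases, the widest in the cluster. The other gaps are 463 bases between *prnA* and *prnX*, 148 between *prnX* and *prnD*, and 628 between *prnB* and *prnC*.

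The transporter and the activator of the cluster had nearly the same means in both strains. *prnB* averaged 5833 normalized counts in the WT and 6227 in Δ*pkaA* (log2 ratio 0.094). *prnA* stood at 1677 in the WT and 1666 in Δ*pkaA*, a log2 ratio of -0.0098. With the means scaled to the same sum the value of *prnA* turned to 0.072, so its sign carries no direction. The WT libraries held 1817 and 1551 reads on *prnA*, or 1739 and 1615 normalized counts, and the Δ*pkaA* mean lies between them. For Δ*pkaA* 3 pairs of reads give the mean of *prnA*, with libraries 1.04-fold to 3.57-fold apart.

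The 2 enzymes of proline breakdown were lower in Δ*pkaA*, by about the same factor. The mean normalized count of *prnD*, the proline oxidase gene, was 16172 in the WT and 9064 in Δ*pkaA*, 1.78-fold lower with a log2 ratio of -0.84. That of *prnC*, which serves proline and arginine alike, was 14758 in the WT and 7039 in Δ*pkaA*, 2.10-fold lower with a log2 ratio of -1.07. *prnC* lies just past the 2-fold limit and *prnD* inside it. With the means scaled to the same sum *prnC* came to -0.99, inside the limit, and *prnD* to -0.75. For *prnD* 29 pairs of reads give the Δ*pkaA* mean and 25 the WT mean, and for *prnC* 20 and 23, so the spread between libraries is not known for either gene and whether the strains overlap cannot be said.

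Per kilobase of listed span, *prnD* was 2.96 times *prnB* in the WT and 1.55 times in Δ*pkaA*. *prnC* was 2.54 times *prnB* in the WT and 1.13 times in Δ*pkaA*. *prnD* and *prnC* kept closer to each other, at a quotient of 1.17 in the WT and 1.37 in Δ*pkaA*. By the means, transporter and enzymes of the cluster had more even levels in Δ*pkaA*. The spread between libraries is not known for *prnB*, *prnD* or *prnC*, and the difference in quotients was not tested.

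The gene of the cluster with the highest ratio was *prnX*, whose role the table does not give. Its mean was higher in Δ*pkaA*, 1483 normalized counts against 865 in the WT, a log2 ratio of 0.78. The WT libraries held 881 and 852 reads, or 843 and 887 normalized counts. For Δ*pkaA* 3 pairs of reads give the mean: 883 and 2063, 1802 and 1178, or 2721 and 293. In each of them the libraries are at least 1.47-fold apart once normalized. In the first pair library a, at 866 normalized counts, lies inside the WT range, in the second both libraries lie above it, and in the third library b, at 298, lies below it. It cannot be told from the mean which pair is the true one, nor whether the higher mean of *prnX* rests on 1 library.

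**Figure D3:**
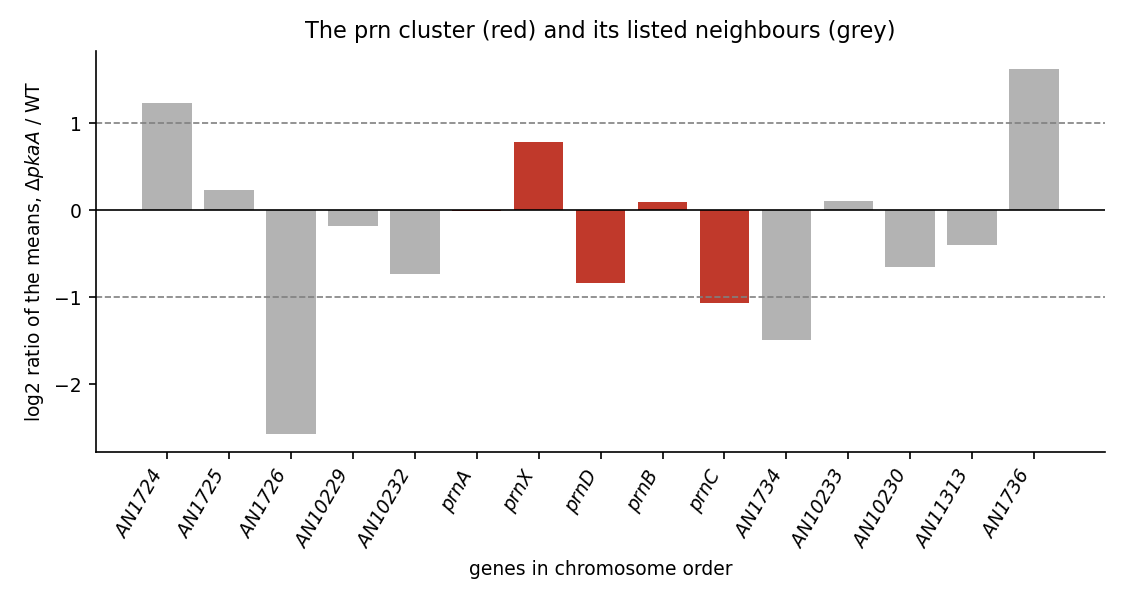
Log2 ratio of the means (Δ*pkaA* over WT) of the *prn* genes (red bars) and of the 5 genes listed on each side (grey bars), in chromosome order, with dashed lines at a 2-fold difference. *prnA* is too close to 0 to show as a bar, *prnC* reaches -1.07, and the bars of AN1726 at -2.57 and AN1736 at 1.62 are the longest of the neighbours.

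Of the 10 genes around the cluster, 2 were at least 2-fold lower and 2 at least 2-fold higher in Δ*pkaA*. These counts are near the shares of all genes above 0, 18.6% and 17.9%, so nothing particular to the neighbourhood is read from them. The gene listed next to *prnC*, AN1734, had 188 normalized counts on average in Δ*pkaA* against 531 in the WT (log2 ratio -1.49). AN1726, a putative 3-methyl-2-oxobutanoate dehydrogenase gene of branched amino acid breakdown, had 549 in Δ*pkaA* and 3259 in the WT (-2.57). AN1736, with a predicted transcription factor domain, had 781 against 254 (1.62), and AN1724, a predicted transporter gene, 826 against 352 (1.23). The gene next to *prnA*, AN10232, had a log2 ratio of -0.74, and its listed span overlaps that of *prnA* on the other strand. Whether the authors' counting used strand is not given, so reads in that overlap cannot be assigned to 1 of the 2. AN1725 (0.23), AN10229 (-0.18), AN10233 (0.10), AN10230 (-0.65) and AN11313 (-0.40) were within 2-fold.

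No neighbour of *agaA* was 2-fold apart. The listed genes AN2903, an aspartic protease gene (-0.03), AN2902 (-0.47), AN2900 (0.60) and AN2899 (0.07) were all within 2-fold. Of the 4 neighbours of *otaA*, 1 was at least 2-fold higher and 1 at least 2-fold lower, against 17.9% and 18.6% of all genes above 0. AN1809, with a fumarylacetoacetase domain as in aromatic amino acid breakdown, had a mean normalized count of 8718 in Δ*pkaA* and 1812 in the WT (log2 ratio 2.27). AN1812, a bZIP transcription factor gene 2 places away, had 15902 in Δ*pkaA* and 121484 in the WT (-2.93). AN1808 (0.31) and AN1811 (0.94) lay within 2-fold.

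Genes of related steps, members left out, were picked by words in their annotation. Where the reads of all 4 libraries could be recovered, the strains were compared by limma on log2(normalized count + 1), fitted over 3732 genes. A gene was said to rise or fall when its Benjamini-Hochberg adjusted p was below 0.05 and the strains were at least 2-fold apart. Of the genes fitted 23.3% fell and 20.5% rose in Δ*pkaA*. Reads were recovered below a mean of 800 in Δ*pkaA* and of 1500 in the WT. A mean between these limits thus left a gene out in Δ*pkaA* but not in the WT. The balance of the 2 shares depends partly on these limits and is not read as a direction. The limma p-values measure the spread between the recovered libraries, and whether those are separate cultures or technical repeats is not given. For the other genes the fold between the means is given, with no test. The median log2 ratio of the 10197 genes above 0 in both strains was -0.01.

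Of 6 genes picked for arginine synthesis, 3 were at least 2-fold lower in Δ*pkaA* and 0 at least 2-fold higher, against 18.6% and 17.9% of all genes above 0. The median log2 ratio was -0.93. None could be fitted by limma, because the means were too high for recovery, so these differences are not tested. AN4409, the ornithine carbamoyltransferase gene *argB*, had a mean normalized count of 3980 in Δ*pkaA* and 25328 in the WT, 6.36-fold lower. *argB* is also a common selection marker of A. nidulans, and the sources used here do not say whether either strain carries it as a marker. AN2243, a putative carbamoyl-phosphate synthase gene, had 10528 and 42240, 4.01-fold lower, and AN1883, the argininosuccinate synthase gene, 13462 and 30943, 2.30-fold lower. AN5999, the large subunit of carbamoyl-phosphate synthase, was 1.59-fold lower, AN0565, a pyrimidine enzyme that entered by its carbamoyl-phosphate synthase activity, 1.31-fold lower, and AN2914, argininosuccinate lyase, 1.27-fold lower.

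**Figure D4:**
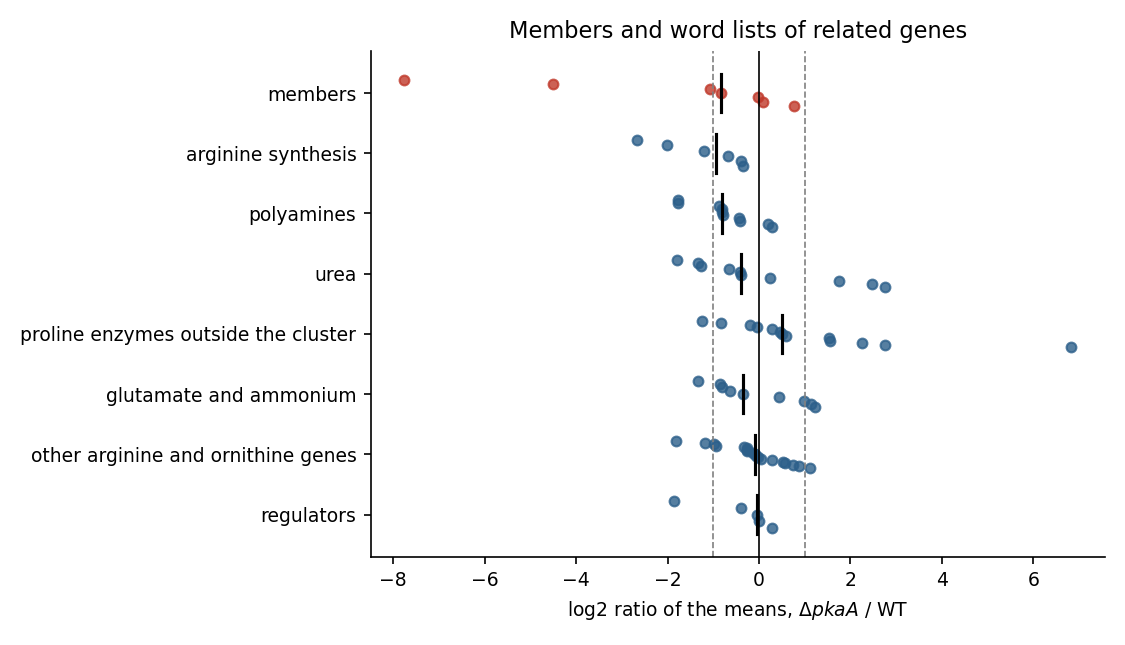
Log2 ratio of the means (Δ*pkaA* over WT) of the 7 members (red) and of genes of related steps found by words in the function text (blue), 1 point per gene above 0 in both strains, with a black bar at the median of each list and dashed lines at a 2-fold difference. All 6 genes picked by words for arginine synthesis lie to the left of 0. They include the pyrimidine enzyme gene AN0565 and do not hold every gene annotated for arginine metabolism. The list labelled proline enzymes outside the cluster, which also holds genes that are no proline enzymes, has a median of 0.50. Its gene at 6.84, AN11188, is annotated for TOR signalling and the control of proline import.

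Among 19 other genes whose text names arginine or ornithine, 2 were at least 2-fold lower and 1 at least 2-fold higher. The shares of all genes above 0 were 18.6% and 17.9%. The median log2 ratio of the list was -0.08. AN8279, an ortholog of the yeast arginine permease Can1p, had a mean normalized count of 2252 in Δ*pkaA* and 7872 in the WT, 3.50-fold lower. AN5867, whose orthologs acetylate glutamate in ornithine synthesis, had 2557 and 5825, 2.28-fold lower. AN5823, the ornithine monooxygenase gene of siderophore synthesis, had 4424 and 2044, 2.16-fold higher. AN0202, a zinc cluster factor gene that the table assigns to the regulation of arginine catabolism, had 1200 and 2380, 1.98-fold lower and so just inside the limit. AN9090, an RNA binding protein gene with the same assignment and the highest average of this list, had 25221 and 30422, and AN8770, a bifunctional enzyme gene, 13171 and 15877. AN7722, a putative N-acetyltransferase gene (log2 ratio 0.53), and AN1150, a putative transaminase gene (-0.13), are annotated for arginine metabolism, as is AN8770. The words for arginine synthesis did not pick these genes or AN5867. AN0202, AN7722 and AN1150 were named for their text after their values were seen. The 2 genes of the list that could be fitted, AN6569 and AN8459, did not pass the test (adjusted p = 0.715 and 0.794 by limma). The sign of both changed with the library left out (for AN8459, log2 fold change -0.77 when WT library a was dropped and 0.49 for library b).

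Polyamines and urea are the routes beyond arginase. Most genes picked for polyamines had lower means in Δ*pkaA*, and those picked for urea went both ways. Of 10 polyamine genes 2 were at least 2-fold lower and 0 higher, against 18.6% and 17.9% of all genes above 0. The median log2 ratio was -0.80. At a fold limit of 1.5, 6 polyamine genes were lower and 0 higher, against 2918 and 2778 of all 10545 genes above 0. Both genes at least 2-fold lower, of 5 fitted, fell by limma, where 23.3% of all genes fitted fell. AN4313, whose orthologs carry spermidine and spermine, had 203 and 187 normalized counts in the Δ*pkaA* libraries and 615 and 720 in those of the WT. It fell with a log2 fold change of -1.77 ± 0.13 (standard error; limma, adjusted p = 0.000106). AN5656, whose orthologs carry polyamines, had 105 and 146 in Δ*pkaA* and 417 and 441 in the WT, with a log2 fold change of -1.79 and a standard error of 0.19 (limma, adjusted p = 0.000353). In both genes the Δ*pkaA* libraries lay below those of the WT. AN3580, a putative polyamine oxidase gene, was lower by less than 2-fold (log2 fold change -0.81, adjusted p = 0.000734 by limma). So was AN4328, whose orthologs act in the control of polyamine transport (-0.80, adjusted p = 0.000782 by limma). AN5025, whose orthologs have polyamine oxidase activity, did not pass the test (0.19, adjusted p = 0.167 by limma). The ornithine decarboxylase gene AN3846, the first step from ornithine to polyamines, had 13187 in Δ*pkaA* and 17823 in the WT, 1.35-fold lower, and the spermidine synthase gene AN0687 had 11121 and 19268, 1.73-fold lower.

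Of 10 genes of urea and of the allantoin route, which also yields urea, 3 were at least 2-fold higher and 3 at least 2-fold lower. Among all genes above 0, the shares were 17.9% and 18.6%. AN0418, a putative urea permease gene, had a mean normalized count of 10348 in Δ*pkaA* and 1857 in the WT, 5.57-fold higher, and AN0660, a putative allantoin transporter gene, had 2347 and 350, 6.71-fold higher. AN0887, a putative urea amidolyase gene, had 4181 and 1236, 3.38-fold higher. The urease gene AN10079, which splits the urea that arginase sets free, had 9025 in Δ*pkaA* and 14108 in the WT, 1.56-fold lower. The 3 genes at least 2-fold lower were AN4603, allantoinase (3.44-fold lower), AN3104, allantoicase (2.51-fold lower), and AN0070, an OHCU decarboxylase of the route from urate to allantoin (2.43-fold lower). AN1480, a putative ureidoglycolate hydrolase gene also annotated for purine metabolism and named after its values were seen, had 1661 and 1415 (log2 ratio 0.23).

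Of 14 genes above 0 that were picked by proline words outside the cluster, not all of them enzymes, 6 were at least 2-fold higher in Δ*pkaA*. At least 2-fold lower was 1, against 17.9% higher and 18.6% lower of all genes above 0. The higher ones include AN6026 and AN9277, which had very few reads, and among genes averaging 10 or more 4 were higher and 1 lower. The median log2 ratio was 0.50 over the 13 genes above 0 in both strains. That is the value of AN1845, a chaperone gene for amino acid permeases and no proline enzyme. The table holds further genes annotated with the enzyme activities of *prnD* and *prnC*, and they did not all go the same way. AN6025 and AN11221 were higher in Δ*pkaA*, and AN2786, given below, was lower. AN6025, a putative pyrroline-5-carboxylate dehydrogenase gene like *prnC*, had 165 and 156 normalized counts in the Δ*pkaA* libraries and 15.3 and 32.3 in those of the WT. It rose with a log2 fold change of 2.79 and a standard error of 0.37 (limma, adjusted p = 0.000916), and the value lay between 2.28 and 3.30 when 1 WT library was left out. AN11221, with a proline dehydrogenase domain like *prnD*, averaged 1868 in Δ*pkaA* against 631 in the WT, 2.96-fold higher, with 496 and 766 in the WT libraries.

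Next to AN6025, the proline dehydrogenase domain gene AN6026, named after its values were seen, had 5 reads in Δ*pkaA* against 1 in the WT, a 4.78-fold ratio whose exact 95% interval of 0.560 to 237 takes in no difference. AN9277, of the same kind, had 2 reads in Δ*pkaA* and 0 in the WT, and AN9279 is listed at 0 in both strains. These genes have too few reads for a direction.

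AN11188, whose orthologs act in TOR signalling and in the control of proline import, had 58.8 and 60.1 normalized counts in the Δ*pkaA* libraries and 0 and 1.04 in those of the WT. The ratio of the means was 114 (exact 95% interval 21.0 to 4746, counting error only), and it rests on a single WT read in library b, without which no ratio can be formed. It rose in limma with a log2 fold change of 5.40 and a standard error of 0.46 on the log2(value + 1) scale (adjusted p = 0.000161), or 4.89 without WT library a and 5.92 with library b dropped. AN2121, with a proline racemase domain, rose as well, from 159 and 115 in the WT libraries to 396 and 400.1 in those of Δ*pkaA* (log2 fold change 1.55, standard error 0.19, adjusted p = 0.000608 by limma). AN2786, whose orthologs have pipecolate oxidase activity and, like *prnD*, proline oxidase activity, fell. It went from 119 and 127 in the WT libraries to 43.1 and 60.1 in those of Δ*pkaA* (log2 fold change -1.25, standard error 0.25, adjusted p = 0.00483 by limma).

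The route of proline synthesis stood closer to the WT. AN5817, the gamma-glutamyl kinase gene of its first step, had a mean normalized count of 1150.4 in Δ*pkaA* and 760 in the WT (log2 ratio 0.60). AN5799, the gamma-glutamyl phosphate reductase gene, had 2452 and 2535 (-0.05), and AN7387, the pyrroline-5-carboxylate reductase gene of its last step, had 4161 and 3026 (0.46). AN5817 and AN5799 were named after their values were seen, as were AN2121, AN5999, AN0565, AN2914 and the fitted genes that did not pass. The list also holds genes that only share the word proline, such as AN2692, a phosphoprotein gene (3848 and 4380, log2 ratio -0.19).

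Both routes meet at glutamate. Of 9 genes picked by names of enzymes of glutamate and glutamine, 1 was at least 2-fold lower and 2 at least 2-fold higher. The shares of all genes above 0 were 18.6% and 17.9%. The median log2 ratio of the list was -0.34. AN7451, the putative NAD-dependent glutamate dehydrogenase gene that frees ammonium from glutamate, had a mean normalized count of 5446 in Δ*pkaA* and 13778 in the WT, 2.53-fold lower. AN5134, the glutamate synthase gene, had 27712 and 11771, 2.35-fold higher. AN4376, the NADP-linked glutamate dehydrogenase gene, had 30857 and 48055, 1.56-fold lower. The other gene at least 2-fold higher, AN3840 (2.21-fold), makes folate polyglutamates and entered by its name. AN6141 and AN8203 entered by a glutaminase activity and are annotated for pyridoxine and NAD synthesis, so the count and median do not describe glutamate enzymes alone. Of the 2 genes that could be fitted, AN4384, also a folate polyglutamate gene, was lower in Δ*pkaA* by less than 2-fold (log2 fold change -0.85, adjusted p = 0.00116 by limma), and AN4809, a putative glutaminase gene, did not pass the test (-0.34, adjusted p = 0.173).

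Of 5 regulators set by identifier, only the carbon catabolite repressor gene *creA* (AN6195) was 2-fold apart, with 4880 in Δ*pkaA* and 17652 in the WT, 3.62-fold lower. Among all genes above 0, 18.6% were at least 2-fold lower and 17.9% at least 2-fold higher. The nitrogen regulator genes had log2 ratios near 0: *areA* (AN8667) 0.28, *areB* (AN6221) -0.40, *nmrA* (AN8168), which holds AreA in check, -0.01, and *tamA* (AN2944), a co-activator of AreA, -0.03. None of the 5 could be fitted by limma. The 5 are regulators of nitrogen and carbon use. AN0202 (1.98-fold lower) and AN9090 (1.21-fold lower), assigned to the regulation of arginine catabolism, are given above and not counted among them.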

How the data were processed

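The authors aligned the reads of 4 samples, 2 per strain, with bowtie2 to the AspGD genome, counted them with HTSeq and ran DESeq between the strains. Versions, genome release and the treatment of technical replicates were not given in the sources. The values used are a deposited signal, the mean over a strain's libraries of the normalized count that the authors made for each gene. Their fold changes, p-values and q-values stand in the same table and were not used. The strain of each mean was taken from a supplementary header of the study. A second deposited table of 190 genes, with 2 columns of means, was not used and holds none of the members.

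Reads per library were recovered as whole-number pairs within 6e-05 of a mean, below 800 in Δ*pkaA* (99.96% of 4833 means) and 1500 in the WT (all 6542). Size factors came out as 1.02 and 0.982 for Δ*pkaA* and 1.04 and 0.960 for the WT. On simulated means, 4478 of 4478 and 6164 of 6164 pairs came back right. For the members, pairs at any mean were counted, with rounding and 3 standard errors of the steps as tolerance. Recovered libraries cannot be matched to labelled replicates. limma was fitted with a trend, pseudocount 1, on genes averaging 10 or more. On simulated data for those 3732 genes it found 197 of 200 genes changed 4-fold, with 1 false call. The simulation gave every gene the same small dispersion and changed far fewer genes than were called in the data. It thus does not give the rate of false calls in the real fit. Genes above a recovery limit in either strain are not in the fit, which covers low and middle expression. As the limit was lower in Δ*pkaA*, the fit leaves out some genes high in Δ*pkaA* at levels where genes high in the WT stay in.

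Members and lists were chosen with earlier results of these data known. Named genes of a list are those with an average of at least 10 and 2-fold apart (at most 3 each way) and the 2 of highest average. Chromosomes and neighbours are from the RefSeq gene table of ASM1142v1 (9974 genes and all 7 members matched), coordinates from the authors, whose build may differ. Intervals cover counting error only. Alternatives were 2 other scalings, fold limits of 1.5 and 4, filters at 10 and 100, pseudocounts of 0.5, 1 and 10, and leaving out each recovered library. Count models were not run, since the deposited values are means. Tests ran in limma 3.58.1 under R 4.3.3, and all else in Python 3.11.15 with pandas 2.3.3, NumPy 2.4.6, matplotlib 3.10.9 and SciPy 1.17.1.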

Additional observations from a re-analysis of the deposited data

How the results depend on the processing

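With the means scaled to the same sum, which shifted every log2 ratio by 0.081, 2 of the 7 members were at least 2-fold lower (*agaA* and *otaA*, without *prnC*), and at a fold limit of 1.5 there were 4 lower and 1 higher (*prnX*). *agaA* and *otaA* stayed past a 4-fold limit and under both pseudocounts. Leaving out either Δ*pkaA* library moved *agaA* by less than 0.01. Of all genes, 931 were lower and 1047 higher at 4-fold, and 1131 and 1183 with an average of at least 100. limma, fitted under the unequal recovery limits of the 2 strains, called 868 genes lower and 766 higher. It called 480 and 429 with an average of at least 100, and 1317 lower with no fold limit. Leaving out 1 recovered library at a time gave 744 to 898 lower and 646 to 816 higher. No paired analysis was possible because the means carry no replicate numbers. The count tests and TMM scaling foreseen on recovered reads were not run, since the reads cover only part of the genes. Spread between libraries is unknown in both strains for *otaA*, *prnB*, *prnC* and *prnD*, in the WT for *agaA*, and in Δ*pkaA* for *prnA* and *prnX*.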
